A study of Mus musculus with 16 samples.

Results

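The data cover 5 globin genes of the mouse, the embryonic genes Hbb-bh1, Hbb-y and Hba-x and the adult genes Hba-a1 and Hbb-b1. They were chosen by the gene name that the array files give to a probe. They are 5 of 36122 gene names on the array, and have 6 of the 55594 probes used, 2 of them for Hbb-y and 1 for each other gene, and all 6 were among the 34126 probes kept after a filter on dim probes. The probe named Hbb-b1 in the files carries a RefSeq accession that the GRCm38.p6 gene table now calls Hbb-bt, the adult beta t chain.

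The arrays measured RNA of cells sorted as positive for VE-cadherin, an adhesion protein of endothelial cells, from mouse conceptuses at E11.5, a mid-gestation stage. Yolk sac and embryo proper were each sorted into CD45+ and CD45− cells, CD45 being a surface protein of blood cells. Each of these 4 populations came from Tie-2-Etv2 mice and from control mice, which gave 8 groups of 2 arrays and 16 arrays in all. In Tie-2-Etv2 animals a transgene for the transcription factor Etv2 is switched on by a Cre recombinase driven by Tie-2, a gene active in endothelial and early blood cells, so that expression depends on where this Cre has acted. All animals were of mixed strain (B6/CBA and others). The genotype label of the embryo CD45− transgenic samples is Tie-2-Etv2, although their titles name Tie-2 alone. Nothing in the labels ties the 2 samples of a group to different embryos or litters. The p-values therefore reflect only how far such samples lie apart, and that distance may be technical.

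Haemoglobin is made of alpha-like and beta-like chains, each holding a haem group. In the mouse the first red cells, the primitive erythroid cells made in the yolk sac, use the alpha-like zeta chain (Hba-x) and the beta-like beta h1 and epsilon y chains (Hbb-bh1 and Hbb-y) together with adult alpha chains (Hba-a1). Definitive red cells of the fetal liver use adult alpha chains with adult beta chains (Hbb-b1), and the change between these sets during gestation is called haemoglobin switching.

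A level is given here as the log2 of the processed probe intensity minus the array's 75th percentile, so that a step of 1 is a doubling. Differences are in the same log2 unit, with the standard error from a limma model of all 16 arrays, and a difference was called at a Benjamini-Hochberg adjusted p under 0.05 over the 34126 probes. Levels of different probes were not set against each other. Between 50.6% and 59.9% of probes were well above background on an array. The yolk sac arrays lay on one slide and the embryo arrays on another, and the CD45+ arrays in one column of each slide, so tissue and slide, and gate and column, cannot be told apart. Genotypes were compared within a slide and a column.

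Etv2 itself was followed at its brightest probe. Whether this probe tells RNA of the transgene from that of the native gene was not tested. Etv2 levels were 3.26 and 3.90 in yolk sac CD45− Tie-2-Etv2 cells and −2.95 and −2.60 in their controls, a difference of 6.36 ± 0.96 (limma adjusted p = 0.000543). The difference was 6.08 ± 0.96 (limma adjusted p = 0.000906) in yolk sac CD45+ cells, with 1 of the 2 control arrays not well above background. In the embryo, Etv2 was 2.50 ± 0.96 higher in CD45− Tie-2-Etv2 cells and 3.09 ± 0.96 higher in CD45+ ones, and neither passed (limma adjusted p = 0.608 and 0.135). Ptprc, which encodes CD45, was not well above background on 6 of the 8 CD45− arrays, the exceptions being the yolk sac CD45− Tie-2-Etv2 pair at −2.92 and −3.43, and was 2.06 or higher on every CD45+ array. Cdh5, which encodes VE-cadherin, was between 4.72 and 5.99 on the CD45− arrays, but only between −0.66 and 0.33 on the CD45+ control arrays. On the CD45+ Tie-2-Etv2 arrays it was higher than on these controls, at 1.65 and 1.99 in the embryo and 2.86 and 3.13 in the yolk sac.

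The sequences of 3 of the 6 probes are shown. Which other messages these probes may bind was not tested. They are the 60-base array oligos as the files give them, 5′ to 3′ in the sense of the message. The Hba-x oligo lies at chr11:32177668-32177727 (mm9, plus strand), the Hba-a1 oligo at chr11:32183955-32184014 (mm9, plus strand) and the second Hbb-y oligo at chr7:111000448-111000507 (mm9, minus strand).
Hba-x: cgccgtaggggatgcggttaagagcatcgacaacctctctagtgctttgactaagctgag
Hba-a1: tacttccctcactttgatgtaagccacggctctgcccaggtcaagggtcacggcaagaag
Hbb-y, probe b: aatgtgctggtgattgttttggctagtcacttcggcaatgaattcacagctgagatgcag
The other Hbb-y oligo (probe a, chr7:111000268-111000327, mm9, minus strand) holds the polyadenylation signal AATAAA. The Hbb-bh1 oligo lies at chr7:110990209-110990268 and the Hbb-b1 oligo at chr7:110961105-110961164, both on the minus strand of mm9. Hba-a1 has a near-identical neighbour, Hba-a2, and Hbb-b1 has near-identical adult beta genes, so the signal of these 2 probes may include those copies and is uncertain to that extent.

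The 250 bases before the start of each gene are shown where the RefSeq promoter table (GRCm38.p6) holds them, which was the case for 4 of the 5 genes and not for Hbb-bh1. Any link between these sequences and the levels on the arrays was not tested. Capitals mark GATA, CACCC and CCAAT on either strand (on the other strand these read TATC, GGGTG and ATTGG). They are the core letters bound by GATA factors, by CACCC-box factors such as Klf1 and by CCAAT-box factors.
Hbb-y, chr7:103853208-103853457, minus strand: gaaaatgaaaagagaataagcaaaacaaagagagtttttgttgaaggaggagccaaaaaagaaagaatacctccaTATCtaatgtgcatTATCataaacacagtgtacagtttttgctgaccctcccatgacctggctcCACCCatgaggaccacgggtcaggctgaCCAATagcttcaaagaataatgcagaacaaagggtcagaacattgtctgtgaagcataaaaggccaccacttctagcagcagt
Hba-x, chr11:32276350-32276599, plus strand: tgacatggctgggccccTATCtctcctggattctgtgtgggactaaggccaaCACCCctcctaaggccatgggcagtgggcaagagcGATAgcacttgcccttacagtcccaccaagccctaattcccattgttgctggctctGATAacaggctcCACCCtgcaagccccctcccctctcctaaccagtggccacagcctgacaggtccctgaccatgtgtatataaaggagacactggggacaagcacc
Hba-a1, chr11:32283422-32283671, plus strand: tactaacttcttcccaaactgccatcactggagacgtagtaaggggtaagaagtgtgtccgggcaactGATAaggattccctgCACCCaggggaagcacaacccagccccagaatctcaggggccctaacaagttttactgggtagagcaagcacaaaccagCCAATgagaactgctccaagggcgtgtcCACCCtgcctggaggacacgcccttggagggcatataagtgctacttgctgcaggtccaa
Hbb-bt, chr7:103813924-103814173, minus strand: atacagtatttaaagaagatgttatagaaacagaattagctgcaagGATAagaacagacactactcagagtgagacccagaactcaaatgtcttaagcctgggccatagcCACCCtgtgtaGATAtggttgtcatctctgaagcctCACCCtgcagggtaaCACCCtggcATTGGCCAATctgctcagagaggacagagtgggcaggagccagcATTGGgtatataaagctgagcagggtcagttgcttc
GATA occurred 2 times before Hbb-y, 3 times before Hba-x, 1 time before Hba-a1 and 2 times before Hbb-bt. It was found in 53.6% of the same window of all 32851 promoters in the table. CACCC occurred 1 time before Hbb-y, 2 times before Hba-x, 2 times before Hba-a1 and 3 times before Hbb-bt, against 52.0% of all promoters with at least 1 match. CCAAT occurred 1 time before Hbb-y, 1 time before Hba-a1 and 3 times before Hbb-bt and was not found before Hba-x, where 33.8% of all promoters had a match.

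All 6 globin probes were well above background on all 16 arrays, and none was saturated. The yolk sac CD45− controls had the highest mean of the 8 groups for each of the 6 probes, and the embryo CD45− controls the lowest. Between these ends the means of Hba-x, ordered from high to low, were 7.50 in yolk sac CD45− control, 6.71 in yolk sac CD45+ control, 6.53 in embryo CD45− Tie-2-Etv2, 6.24 in embryo CD45+ Tie-2-Etv2, 5.96 in yolk sac CD45− Tie-2-Etv2, 5.86 in yolk sac CD45+ Tie-2-Etv2, 5.50 in embryo CD45+ control and 5.37 in embryo CD45− control. Neighbours in such an order were picked by rank in these data, so their means lie close by construction, and their arrays mostly overlapped. For Hba-x and Hbb-b1, 6 of the 7 neighbouring pairs overlapped in their arrays, and for the other 4 probes all 7 did. No share of neighbouring pairs over all probes was computed. The pair that did not overlap for Hba-x was yolk sac CD45− control over yolk sac CD45+ control, a separation that 27.1% of all probes had in that direction. For Hbb-b1 it was yolk sac CD45− Tie-2-Etv2 over embryo CD45− control.

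**Figure D1:**
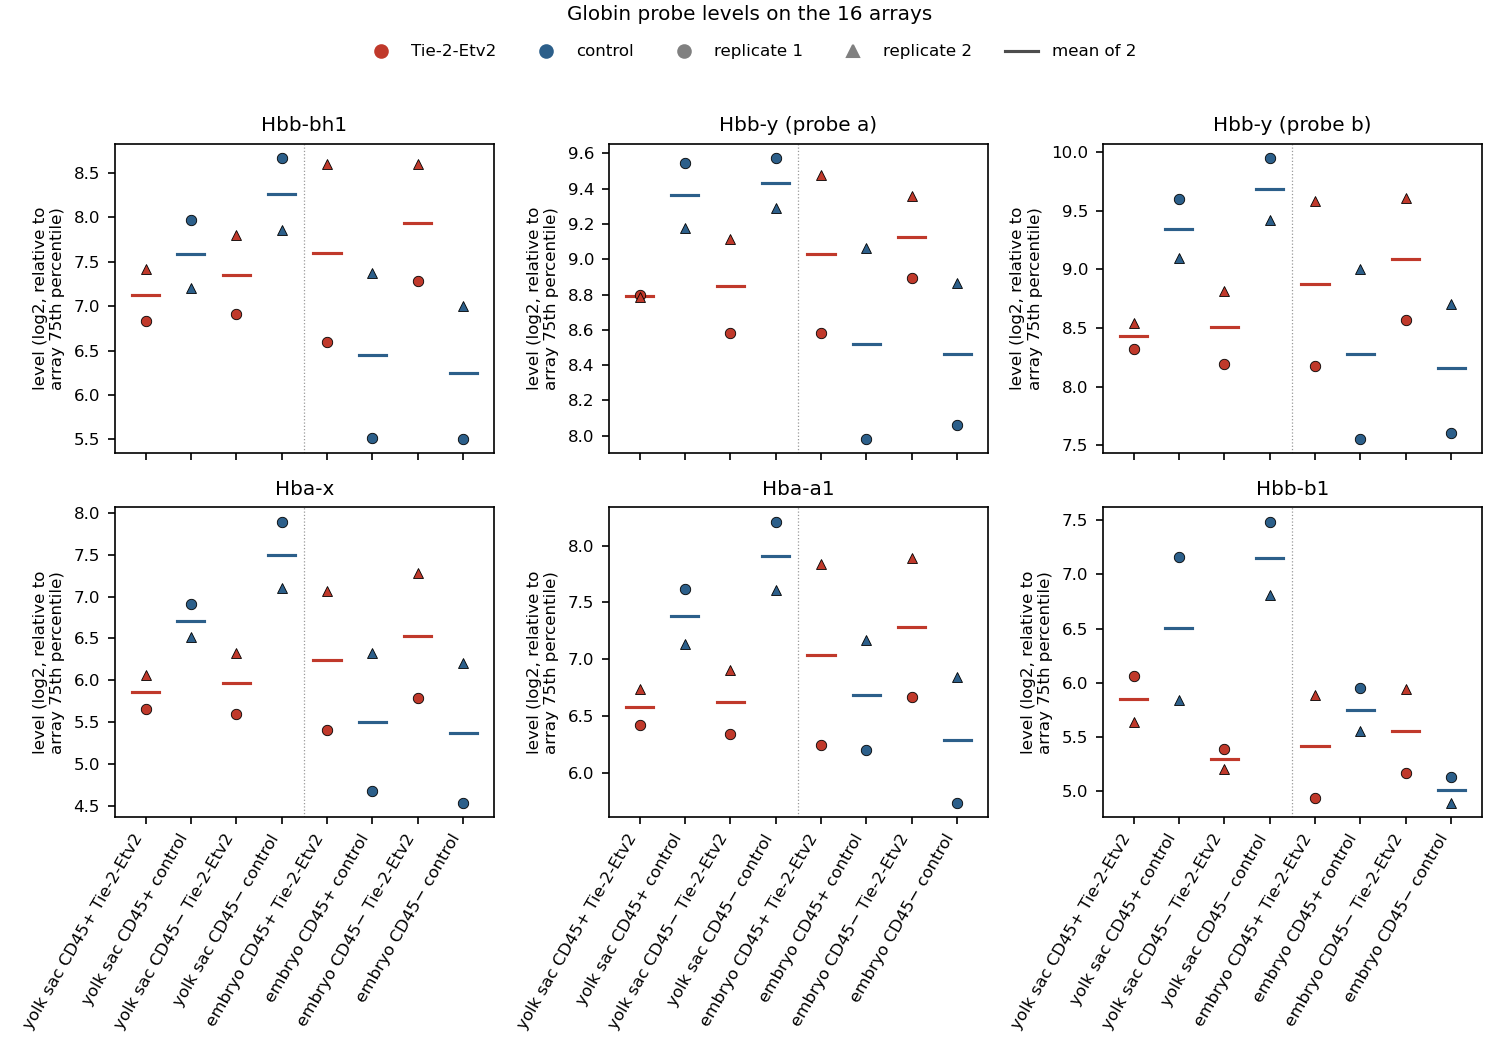
Level of each globin probe (log2, relative to the array's 75th percentile, vertical axis) on the 2 arrays of each group (horizontal axis), with circles for replicate 1, triangles for replicate 2, red for Tie-2-Etv2, blue for control and a line at the mean of 2. Left of the dotted line, in the yolk sac, the Tie-2-Etv2 means lie below the control means for all 6 probes, and on the right, in the embryo, the means of 5 of 6 probes in CD45+ cells and of all 6 in CD45− cells lie above the control means.

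In yolk sac CD45− cells, each of the 6 globin probes had both Tie-2-Etv2 arrays below both control arrays, and Hbb-b1, the adult beta chain, was the one that passed the test. Its levels were 5.39 and 5.20 in Tie-2-Etv2 cells, against 7.49 and 6.81 in controls. Hbb-b1 fell by 1.86 ± 0.47 on the log2 scale, to 0.276 times the control level (limma adjusted p = 0.00952). That is 1 of 6 globin probes called, where 39.9% of all probes were called in this comparison and 15.1% were called lower. The complete separation of the arrays in the lower direction, seen for 6 of 6 globin probes, was seen for 29.6% of all probes. The probes of Hbb-bh1, Hbb-y, Hba-x and Hba-a1 moved together across the arrays (Pearson's r 0.926 to 0.987). The 6 probes are therefore not 6 independent observations. The median difference of the 6 was −1.23, beside 0.18 for all probes. At an unadjusted p under 0.05 it was again Hbb-b1 alone, against 48.5% of all probes.

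Hba-x, the embryonic zeta chain, was at 5.60 and 6.33 in yolk sac CD45− Tie-2-Etv2 cells and at 7.90 and 7.10 in controls. The difference was −1.54 ± 0.77 (95% interval −3.25 to 0.18), which did not pass (limma adjusted p = 0.140). Hbb-bh1, the embryonic beta h1 chain, was at 6.91 and 7.80 in Tie-2-Etv2 cells and at 8.67 and 7.86 in controls, a difference of −0.91 ± 0.83 (limma adjusted p = 0.422). The gap between the higher Tie-2-Etv2 array and the lower control array of Hbb-bh1 was the narrowest of the 5 genes. Hbb-y, the embryonic epsilon y chain, differed by −0.59 ± 0.42 at probe a (limma adjusted p = 0.300) and by −1.18 ± 0.61 at probe b (limma adjusted p = 0.151). Probe b gave 8.20 and 8.82 in Tie-2-Etv2 cells and 9.95 and 9.42 in controls, so that both probes of the gene pointed the same way. Hba-a1, the alpha chain that embryonic and adult haemoglobin share, was at 6.34 and 6.90 in Tie-2-Etv2 cells and at 8.21 and 7.61 in controls, with a difference of −1.29 ± 0.60 (limma adjusted p = 0.115).

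With the spread taken from the 4 arrays compared alone, or from the 8 arrays of the slide, 4 globin probes passed instead of 1. These were Hba-x, Hba-a1, Hbb-y probe b and Hbb-b1, all lower. The share of all probes called in these fits is not given here. Over all alternative fits other than those leaving out single arrays, 10285 to 15223 probes were called, against 13629 in the main fit. Without yolk sac CD45− control replicate 1, which had the highest level of all 16 arrays for each of the 6 probes, no globin probe passed (Hbb-b1 limma adjusted p = 0.076).

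The same 6 probes had lower means in Tie-2-Etv2 than in control cells of the yolk sac CD45+ gate, and none passed the limma test, where 30.5% of all probes did. At an unadjusted p under 0.05 none of the 6 passed either, against 40.5% of all probes. Hbb-y probe b showed the largest difference, −0.92 ± 0.61 (limma adjusted p = 0.294), with levels of 8.33 and 8.54 in Tie-2-Etv2 cells and 9.60 and 9.09 in controls. Hba-x was at 5.66 and 6.07 in Tie-2-Etv2 cells and at 6.91 and 6.51 in controls, a difference of −0.85 ± 0.77 (limma adjusted p = 0.448). The arrays of the genotypes did not overlap for 4 of the 6 probes (Hba-x, Hba-a1 and both Hbb-y probes), a lower-side separation that 30% of all probes had. Hba-a1 was at 6.42 and 6.73 in Tie-2-Etv2 cells and at 7.62 and 7.14 in controls. Hbb-b1 overlapped, with 6.06 and 5.63 in Tie-2-Etv2 cells and 7.17 and 5.84 in controls, as did Hbb-bh1, with 6.83 and 7.42 in Tie-2-Etv2 cells and 7.97 and 7.20 in controls. The 2 Hbb-b1 control arrays were farther apart than the difference of the genotype means, −0.66 ± 0.47 (limma adjusted p = 0.326).

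In embryo CD45− cells the means of all 6 probes were higher in Tie-2-Etv2 cells, by 0.54 to 1.69, and limma called none, against 1.14% of all probes. None had an unadjusted p under 0.05 either, against 6.6% of all probes. Hbb-bh1 had the largest difference, with 7.28 and 8.60 in Tie-2-Etv2 cells and 5.50 and 7.00 in controls (1.69 ± 0.83, limma adjusted p = 0.822). Its 95% interval ran from −0.15 to 3.53. Hba-x was at 5.79 and 7.28 in Tie-2-Etv2 cells and at 4.53 and 6.21 in controls, a difference of 1.16 ± 0.77 (limma adjusted p = 0.964). Hba-a1 was at 6.67 and 7.89 in Tie-2-Etv2 cells and at 5.74 and 6.84 in controls. Hbb-y probe b was at 8.57 and 9.61 in Tie-2-Etv2 cells and at 7.61 and 8.70 in controls. These 3 probes overlapped between the genotypes, while Hbb-bh1, Hbb-y probe a and Hbb-b1 did not (15.3% of all probes were separated in the higher direction). Hbb-b1 was at 5.16 and 5.94 in Tie-2-Etv2 cells and at 5.12 and 4.89 in controls, so that the lower Tie-2-Etv2 array lay just above the higher control array.

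In embryo CD45+ cells limma called no globin probe (2.63% of all probes were called), and none had an unadjusted p under 0.05 (15.2% of all probes did). The arrays of the genotypes overlapped for all 6, where 42.6% of all probes were separated in either direction. Hbb-bh1 was at 6.60 and 8.60 in Tie-2-Etv2 cells and at 5.52 and 7.38 in controls, a difference of 1.15 ± 0.83 (limma adjusted p = 0.603). Hba-x was at 5.41 and 7.07 in Tie-2-Etv2 cells and at 4.67 and 6.32 in controls. Hba-a1 was at 6.25 and 7.83 in Tie-2-Etv2 cells and at 6.20 and 7.17 in controls. In each of these genes the 2 samples of a group were farther apart than the genotype means. Hbb-y probe a was at 8.58 and 9.48 in Tie-2-Etv2 cells and at 7.98 and 9.06 in controls. Hbb-b1 was the one probe with a lower mean in Tie-2-Etv2 cells, 4.94 and 5.88, against 5.95 and 5.55 in controls (−0.34 ± 0.47, limma adjusted p = 0.847). The sign of the difference depended on 1 array for 5 of the 6 probes, Hbb-bh1 being the exception.

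Markers of other cells moved with the genotype in the same samples. Their counts stand beside the shares of all probes that limma called for genotype. In yolk sac CD45− cells 24.8% of all probes rose and 15.1% fell, and in yolk sac CD45+ cells 17.2% rose and 13.4% fell. In embryo CD45− cells 1.12% rose and 0.0264% fell, and in embryo CD45+ cells 2.02% rose and 0.607% fell. In yolk sac CD45− cells 9 of 13 endothelial markers fell, 9 of 10 pan-leukocyte markers rose and 10 of 11 megakaryocyte and platelet markers rose. The summed level of the megakaryocyte and platelet list was 9.71 to 10.14 in Tie-2-Etv2 cells and 2.77 to 3.17 in controls, where Rgs18 was not well above background. The summed level of 13 red cell markers other than globins was 7.46 to 7.55 in Tie-2-Etv2 cells and 6.51 to 6.63 in controls. Summed levels are the log2 of summed linear signals and weigh bright genes most. Of these 13 markers, 4 rose and 1 fell, and their median difference was −0.07. The list held Gata1, at 5.67 and 5.23 in Tie-2-Etv2 cells and at 0.25 and −0.35 in controls. Alas2, Slc4a1 and Ahsp, also in the list, had lower means in Tie-2-Etv2 cells than in controls, so the higher sum is not a rise of the whole list. In yolk sac CD45+ cells 11 of 13 endothelial markers rose, 11 of 13 macrophage markers fell, and 9 of 11 megakaryocyte and platelet markers rose while 2 fell. The summed level of this last list went the other way, at 7.82 to 8.36 in Tie-2-Etv2 cells and 8.87 to 9.35 in controls. The red cell list summed there to 7.36 to 7.49 in Tie-2-Etv2 cells and 8.26 to 8.96 in controls, with 2 of 13 that rose, 2 that fell and a median difference of −0.64. Yolk sac endoderm markers summed to between 6.68 and 9.30 in yolk sac CD45− Tie-2-Etv2 cells and 9.44 to 9.57 in controls, with 0 of 10 called. In embryo CD45− cells 8 of 11 megakaryocyte and platelet markers and 6 of 10 pan-leukocyte markers rose. In embryo CD45+ cells 7 of 11 megakaryocyte and platelet markers and 5 of 13 endothelial markers did. The summed megakaryocyte and platelet level in embryo CD45+ cells was nevertheless lower in Tie-2-Etv2 cells, 7.66 to 7.84, than in controls, 8.14 to 8.49. In embryo CD45− cells it was higher, 7.92 to 8.52 against 3.07 to 3.67. The part of these cells in the globin differences was not tested. In bulk RNA, fewer globin-bearing cells and less globin mRNA in each cell cannot be told apart.

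**Figure D2:**
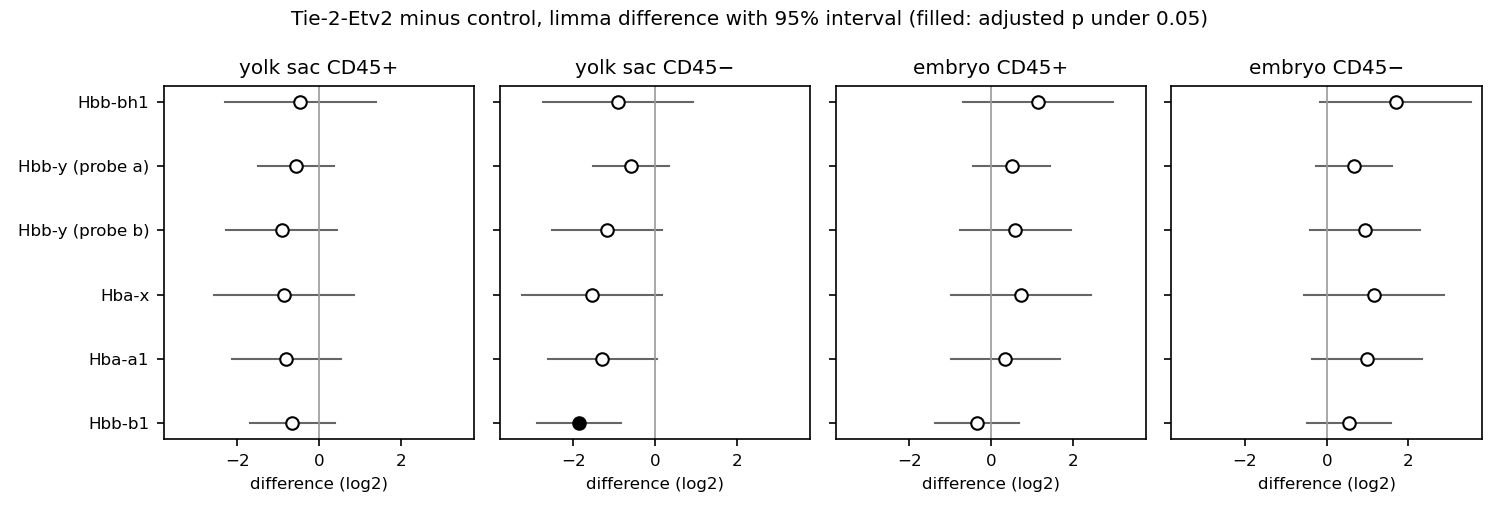
Difference of Tie-2-Etv2 minus control (log2, horizontal axis) for each globin probe (vertical axis) in the 4 sorted populations, with the 95% interval of the limma fit as a bar; a filled point passed the test. Hbb-b1 in yolk sac CD45− cells, at −1.86, is the single filled point, and the points lie left of 0 for all probes in the yolk sac and right of 0 in the embryo except Hbb-b1 in CD45+ cells.

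The difference between the genotypes was itself compared between tissues. In CD45− cells the Tie-2-Etv2 difference of Hbb-b1 was −1.86 in the yolk sac and 0.54 in the embryo, and the yolk sac minus embryo difference of these, −2.40 ± 0.66, passed the test (limma adjusted p = 0.0369). It was 1 of 6 globin probes called, where 14.2% of all probes were called, and 4 of 6 had an unadjusted p under 0.05, as had 30.5% of all probes. The other 5 probes had estimates of the same sign, from −1.25 ± 0.59 for Hbb-y probe a to −2.70 ± 1.09 for Hba-x, with limma adjusted p-values of 0.101 to 0.187. The call for Hbb-b1 was lost when any 1 of the 8 arrays was left out and when dim probes were not filtered. In CD45+ cells none of the 6 probes passed limma's test (2.68% of all probes did) or had an unadjusted p under 0.05 (17.5% did), with estimates from −1.61 to −0.32 and limma adjusted p-values of 0.395 to 0.865.

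Between control tissues, the mean levels of all 6 globin probes were higher in the yolk sac in both gates. In CD45− control cells all 6 probes were higher on both yolk sac arrays than on both embryo arrays, a separation that 21% of all probes had in that direction. Hbb-b1 was 2.15 ± 0.47 higher (limma adjusted p = 0.0174) and was the one probe called among the 6, where 10.5% of all probes were called. At an unadjusted p under 0.05 there were 6 of 6, against 26.1% of all probes. Most of the 6 probes moved together across the arrays, so these are not 6 independent results. Hba-x differed by 2.13 ± 0.77 and Hbb-bh1 by 2.01 ± 0.83, and Hba-a1 by 1.62 ± 0.60, with limma adjusted p-values of 0.110, 0.156 and 0.119. Leaving out any 1 of the 4 arrays ended the call of Hbb-b1. In CD45+ control cells the 6 probes were 0.69 to 1.22 higher in the yolk sac, and limma called none (1.52% of all probes were called), none having an unadjusted p under 0.05 (12.5% of all probes did). The arrays of the tissues did not overlap for 3 of the 6, a separation that 15.1% of all probes had in that direction. In Tie-2-Etv2 cells limma called none in either gate, where 28.3% of all probes were called in CD45− cells and 10.7% in CD45+ cells, and none had an unadjusted p under 0.05, where 39.3% and 27.1% did. There the yolk sac means were 0.26 to 0.66 below the embryo means in CD45− cells, and between 0.47 below and 0.44 above them in CD45+ cells.

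The gates of one tissue and genotype were then compared. In the model of 8 group means no globin probe was called between the gates by limma in any of the 4 comparisons, although 29.1% of all probes were called in Tie-2-Etv2 embryos, 35.5% in control embryos, 9.64% in Tie-2-Etv2 yolk sacs and 36.9% in control yolk sacs. None had an unadjusted p under 0.05 in these comparisons either, where the shares of all probes were 39%, 43.4%, 19.1% and 45.3% in the same order. With same-numbered arrays of a tissue and genotype taken as a block, a fit chosen after seeing the data, Hba-x, Hba-a1, Hbb-b1 and Hbb-bh1 were lower in CD45+ than in CD45− yolk sac controls (limma adjusted p = 0.0105, 0.0352, 0.0367 and 0.042). That fit also called Hbb-b1 higher in CD45+ than in CD45− embryo controls (limma adjusted p = 0.0238). It called the genotype difference of Hbb-b1 higher in CD45+ than in CD45− yolk sacs (limma adjusted p = 0.0286). The labels do not tie these numbers together, and the share of all probes called by that fit is not given here. Over all alternative fits other than those leaving out single arrays, 9274 to 14499 probes were called in yolk sac controls. In embryo controls the range was 7021 to 13858, and for the genotype difference between yolk sac gates 4480 to 6938. Without the block, the largest difference was in yolk sac controls, where Hba-x was 6.91 and 6.51 in CD45+ cells and 7.90 and 7.10 in CD45− cells (−0.79 ± 0.77, limma adjusted p = 0.465, 95% interval −2.50 to 0.92). Without the block, the genotype differences did not pass as different between the gates for any globin probe in the embryo, where limma called 0.961% of all probes, or in the yolk sac, where it called 17%. At an unadjusted p under 0.05 it was again 0 of 6 in both, against 7.89% (embryo) and 28.8% (yolk sac) of all probes.

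A large part of the spread within groups went with the replicate number within a tissue and genotype, though less so for Hbb-b1. Among embryo arrays the 2 replicates of a group differed by a median of 1.16 over the 6 probes and 4 groups, while arrays of the same number in the 2 gates differed by a median of 0.22. In the yolk sac the same 2 medians were 0.53 and 0.33. Replicate 2 of Hba-x lay above replicate 1 by 1.49 to 1.67 in each of the 4 embryo groups. In yolk sac controls replicate 2 lay below replicate 1, by 0.40 in CD45+ cells and 0.79 in CD45− cells. In yolk sac Tie-2-Etv2 cells it lay above, by 0.41 in CD45+ and 0.73 in CD45− cells, so the sign there changed with the genotype. For Hbb-b1 the replicate and gate medians were 0.58 and 0.45 in the embryo and 0.55 and 0.55 in the yolk sac. Replicate 2 minus replicate 1 of Hbb-b1 was −0.24 in CD45− and −0.39 in CD45+ embryo controls. It was 0.78 and 0.95 in the same gates of Tie-2-Etv2 embryos. The residual standard deviation was 0.93 for Hbb-bh1 and 0.87 for Hba-x, larger than that of 95.1% and 93.5% of probes, and 0.51 for Hbb-b1.

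**Figure D3:**
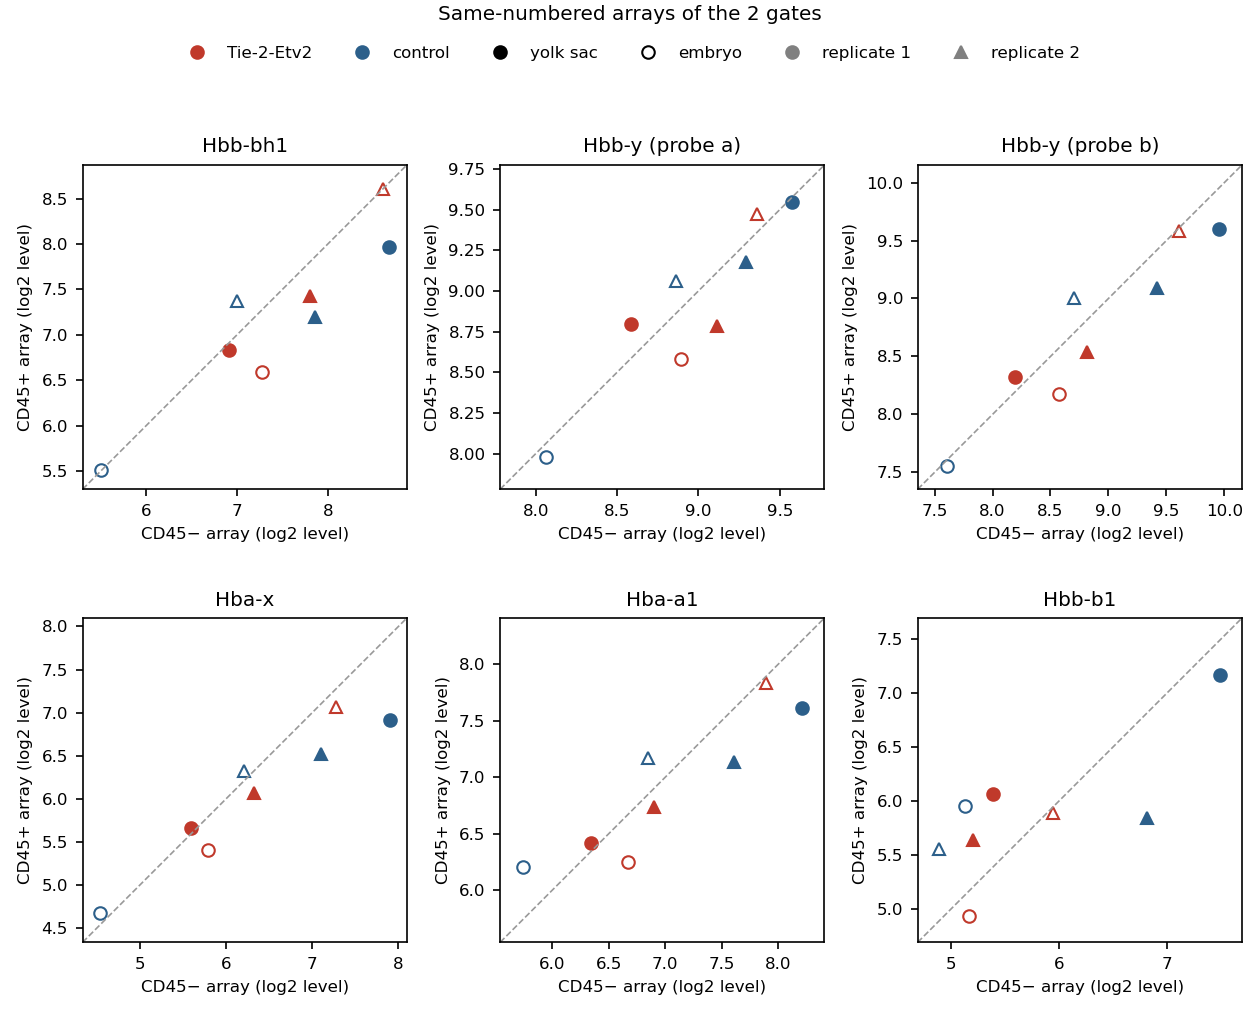
Level of each globin probe on the CD45+ array (log2, vertical axis) against the CD45− array of the same tissue, genotype and replicate number (horizontal axis), with filled symbols for yolk sac, open for embryo, red for Tie-2-Etv2, blue for control, circles for replicate 1 and triangles for replicate 2. Points lie near the dashed line of equal level, within 0.99 of it for all 6 probes.

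The 3 embryonic genes and Hba-a1 moved together across the 16 arrays. Pearson's r was 0.926 to 0.987 between their 5 probes, and 0.980 between the 2 Hbb-y probes. Hbb-b1 went less closely with them, at 0.509 with Hbb-bh1 and 0.687 with Hba-a1. These correlations describe 16 arrays that share slides, gates and genotypes.

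The genes most like each globin were found among 16529 other named genes. For Hba-a1 they were Alas2 (r = 0.987 over 16 arrays), Hba-x (0.976), Hba-a2 (0.970), Slc4a1 (0.966) and Hbq1b (0.948). Alas2 encodes the first enzyme of haem synthesis in red cells, Slc4a1 their anion exchanger, band 3, and Hbq1b a theta globin. Hba-x had Alas2 first (0.983), and Hba-a1, Hbb-y, Hbb-bh1 and Hba-a2 after it. Hbb-bh1 had Hba-x (0.954), Hbb-y, Alas2 and Hba-a1 (0.926) as its first 4. Hbb-y had Hba-x (0.961), Hbb-bh1, Hba-a2, Hba-a1 and Alas2 (0.928). The list of Hbb-b1 held no globin or haem gene and reached r = 0.893 (Ankrd9), followed by Cyp21a1, Nkx1-2, Ogfod3 and Pop4 at 0.849.

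Other red cell genes were followed beside the globins. Alas2 and Slc4a1 had the same direction as the globins in the yolk sac. In CD45− cells Slc4a1 was at 1.08 and 1.47 in Tie-2-Etv2 cells and at 3.32 and 2.53 in controls, and it fell by 1.65 ± 0.57 (limma adjusted p = 0.0403). Alas2 differed by −1.64 ± 0.73 in the same comparison (limma adjusted p = 0.0996). Ahsp, which binds free alpha chains, differed by −0.79 ± 0.52 (limma adjusted p = 0.255), and Klf1, the CACCC-box activator of adult beta globin, by −0.07 ± 0.55 (limma adjusted p = 0.943). Hba-a2 differed by −0.95 ± 0.42 (limma adjusted p = 0.0996), while Hbb-b2 was 0.41 ± 0.39 higher (limma adjusted p = 0.450), opposite in sign to Hbb-b1. Over the 9 other globin genes on the array, 7 were tested and limma called none in any Tie-2-Etv2 comparison. At an unadjusted p under 0.05 there were 3 of 7 in yolk sac CD45− cells and 2 of 7 in yolk sac CD45+ cells, smaller shares than the 48.5% and 40.5% of all probes. There were 0 in each embryo population, against 6.6% (CD45−) and 15.2% (CD45+) of all probes.

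Several transcription factors of blood cells rose in the yolk sac, where the globin means were below controls, and in the embryo the called factors rose and most globin means were above controls. Gata1, which activates globin and haem genes, was at 5.67 and 5.23 in yolk sac CD45− Tie-2-Etv2 cells and at 0.25 and −0.35 in controls, and rose by 5.50 ± 0.45 (limma adjusted p = 1.45e-05). It rose in all 4 populations, by 4.68 in yolk sac CD45+ cells and by 2.12 in embryo CD45+ cells, while in embryo CD45− cells its levels were 3.41 and 3.19 in Tie-2-Etv2 embryos and −1.16 and −0.44 in controls (limma adjusted p = 0.000763). Across the 16 arrays its r with the 6 globin probes lay between −0.327 and 0.196. Gfi1b, a repressor needed by erythroid and megakaryocyte cells, rose by 6.08 ± 0.40 in yolk sac CD45− cells (limma adjusted p = 3.69e-06). Of the 20 erythroid transcription factors tested, 10 rose and 3 fell in yolk sac CD45− cells, 11 rose and 1 fell in yolk sac CD45+ cells, 5 rose in embryo CD45+ cells and 3 in embryo CD45− cells. The shares of all probes were 24.8% risen and 15.1% fallen in yolk sac CD45− cells, so that 3 of 20 fallen was no more than the background, and 17.2% and 13.4% in yolk sac CD45+ cells. Of all probes, 2.02% rose in embryo CD45+ cells and 1.12% in embryo CD45− cells. Their median difference in yolk sac CD45− cells was 0.74, beside 0.18 for all probes.

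**Figure D4:**
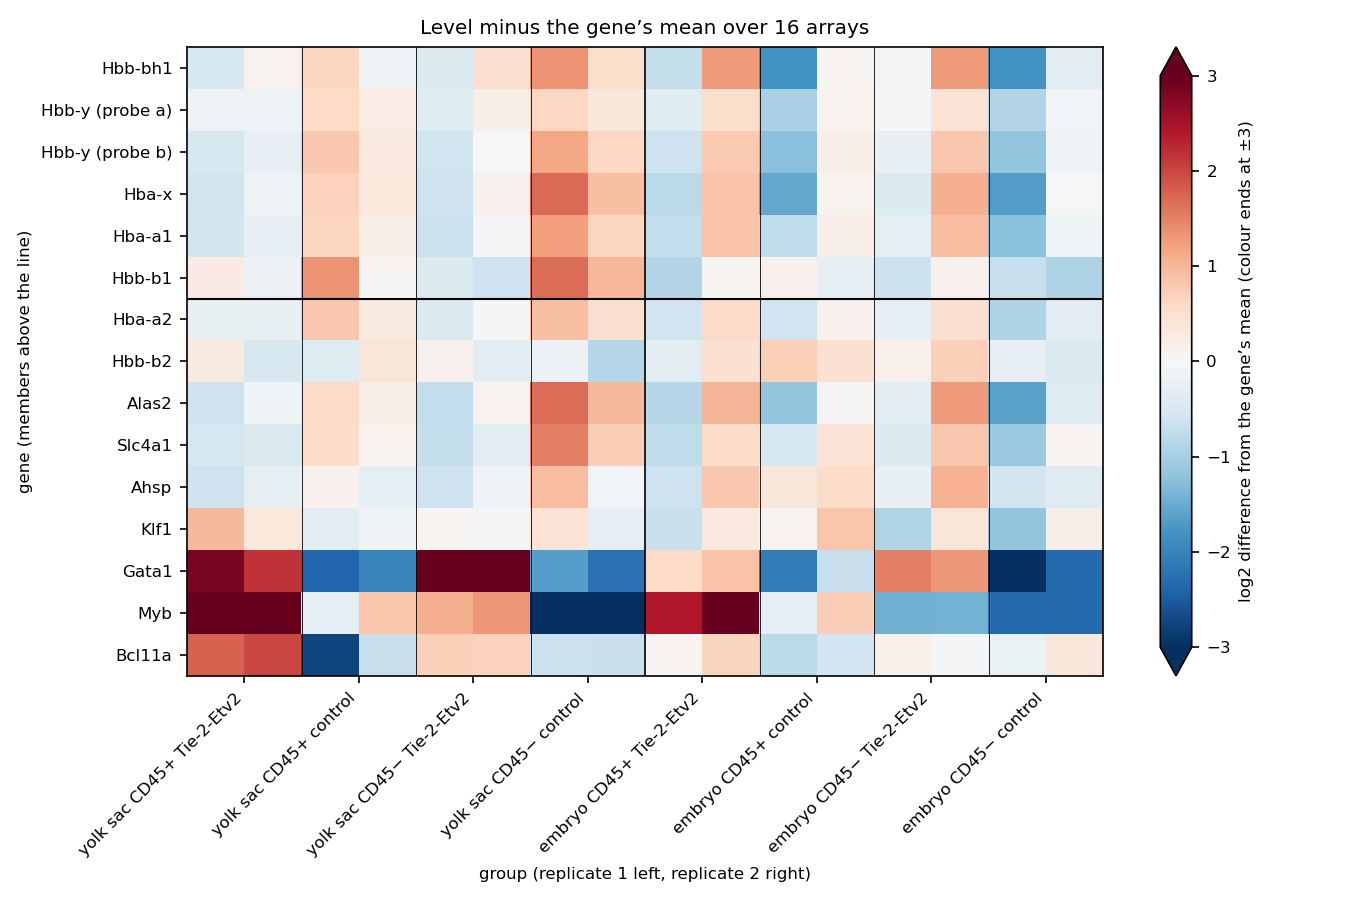
Level of each gene minus its mean over 16 arrays (colour, log2) for the globin probes above the line and for 9 other genes below it, in columns for replicate 1 and replicate 2 of each group. The rows of Alas2, Slc4a1 and Hba-a2 resemble the globin rows, while Gata1 and Myb are high in Tie-2-Etv2 columns of the yolk sac, where the globins are lower than in controls.

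Genes that act on globin switching were counted as a list of 24, all tested. Of these, 14 rose and 1 fell in yolk sac CD45+ cells, in yolk sac CD45− cells 9 rose and 3 fell, and in each embryo population 1 rose and 0 fell. Of all probes, 17.2% rose and 13.4% fell in yolk sac CD45+ cells, and 24.8% rose and 15.1% fell in yolk sac CD45− cells. The share that rose was 2.02% in embryo CD45+ cells and 1.12% in embryo CD45− cells. Myb, a factor of definitive blood progenitors, rose by 5.32 ± 0.41 in yolk sac CD45− cells (limma adjusted p = 9.57e-06) and by 3.13 ± 0.41 in yolk sac CD45+ cells. Bcl11a, a repressor of embryonic beta-like genes, rose by 3.61 ± 0.51 in yolk sac CD45+ cells (limma adjusted p = 0.00047), with levels of 2.86 and 3.09 in Tie-2-Etv2 cells and −1.66 and 0.39 in controls. It was 1.36 ± 0.51 higher in yolk sac CD45− cells and did not pass (limma adjusted p = 0.0553). Klf2, which in the mouse embryo activates embryonic beta-like genes, fell by 3.30 ± 0.45 in yolk sac CD45+ cells (limma adjusted p = 0.000402). Sox6, a partner of Bcl11a, was not well above background on either yolk sac CD45− Tie-2-Etv2 array and was at least 2.52-fold lower there than in controls (limma adjusted p = 0.0109).

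Haem synthesis genes were counted over 15, all tested. Of these, 9 rose and 1 fell in yolk sac CD45− cells, where 24.8% of all probes rose and 15.1% fell, with a median difference of 0.98 beside 0.18 for all probes. Tmem14c, a mitochondrial carrier of porphyrin, rose by 1.16 ± 0.24 (limma adjusted p = 0.00348). The yolk sac CD45+ cells had 5 that rose and 1 that fell, beside 17.2% and 13.4% of all probes, and among them the pathway enzyme Alad rose by 0.91 ± 0.25 and the pathway enzyme Ppox fell by 1.20 ± 0.25 (limma adjusted p = 0.018 and 0.00428). None of the 15 passed the limma test in either embryo population, where 2.63% (CD45+) and 1.14% (CD45−) of all probes did. At an unadjusted p under 0.05 there were 0 in CD45+ and 3 in CD45− cells, against 15.2% and 6.6% of all probes. The medians were 0.02 in CD45+ and 0.13 in CD45− cells. Alas2, the member of this list most like the globins, was not among those that rose.

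Of 12 genes of iron uptake and chain handling, 4 rose and 2 fell in yolk sac CD45− cells, near the 24.8% and 15.1% of all probes. There the transferrin receptor gene Tfrc rose by 1.45 ± 0.21 and Aco1, an iron-regulatory protein, fell by 1.35 ± 0.24 (limma adjusted p = 0.000445 and 0.0015). None rose and 4 fell in yolk sac CD45+ cells, beside 17.2% and 13.4% of all probes. In embryo CD45+ cells, where 0.607% of all probes fell, 1 fell, Slc11a2, an iron transporter, by 0.99 ± 0.21 (limma adjusted p = 0.0362). Of 20 genes of the red cell membrane and skeleton, 4 rose and 5 fell in yolk sac CD45− cells, and 4 rose and 2 fell in yolk sac CD45+ cells. In embryo CD45− cells 1 rose, where 1.12% of all probes rose, and limma called 0 in embryo CD45+ cells (2.63% of all probes). In each embryo population 6 had an unadjusted p under 0.05, against 6.6% (CD45−) and 15.2% (CD45+) of all probes. The called shares of this list were near those of all probes in the yolk sac, 39.9% in CD45− and 30.5% in CD45+ cells. Xk, a membrane protein that carries the Kx antigen, rose by 3.02 ± 0.33 in yolk sac CD45− cells (limma adjusted p = 9.03e-05). Of 21 red cell enzymes and Epo signalling genes tested, 7 rose and 1 fell in yolk sac CD45− cells, where 24.8% of all probes rose and 15.1% fell. In yolk sac CD45+ cells 6 rose and 4 fell, beside 17.2% and 13.4% of all probes. The median difference of these genes was 0.40 in CD45− and 0.19 in CD45+ cells, beside 0.18 and 0.05 for all probes. In embryo CD45+ cells 2 rose and 1 fell, beside 2.02% and 0.607% of all probes. Car2, carbonic anhydrase, rose by 3.69 ± 0.31 in yolk sac CD45+ cells and Blvrb, a haem-breakdown enzyme, fell by 2.71 ± 0.21 (limma adjusted p = 2.86e-05 and 2.03e-05).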

How the data were processed

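RNA of 16 sorted samples was hybridised to 1-colour Agilent arrays, and signals were extracted with Agilent Feature Extraction 10.7, per the submitters' processing notes. The deposited scanner files give a processed intensity per spot, already background-corrected by that software, per the file headers. The authors also deposited a table of log2 values, which proved to be centred on the median of the 4 arrays of each tissue and gate and served as an alternative for genotype comparisons. Control spots were left out, spots of a probe averaged, log2 taken and each array's 75th percentile subtracted. The probe filter asked for a signal flagged well above background on the 2 arrays of any 1 group. One model of 8 group means was fitted with limma 3.58.1 in R 4.3.3 (8 residual degrees of freedom, two-sided, Benjamini-Hochberg adjustment over 34126 probes, threshold 0.05) and tested on simulated data.

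The globin genes and gene lists were chosen with earlier results of these data known. Named genes were all globin probes, the 2 called genes with the largest absolute difference per list in each genotype comparison, a fixed set (Gata1, Klf1, Bcl11a, Myb, Sox6, Alas2, Slc4a1, Ahsp, Hba-a2, Hbb-b2, Etv2, Cdh5 and Ptprc) and the 5 genes most correlated with each globin; 2 genes that this rule names are not reported here. A list gene was its brightest probe. For genes dim on both arrays of a group, a lower bound of the fold was computed from the lowest signal among probes well above background. Alternatives changed the background correction, scaling, normalization, probe filter, arrays in the fit, prior and replicate block, and left out each array. With 2 arrays per group, the number of arrays limits the precision.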

Additional observations from a re-analysis of the deposited data

Results flagged for a closer look

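The Tie-2-Etv2 difference of Hbb-b1 in CD45− cells differed between the tissues by a test of the difference itself. It was −1.86 ± 0.47 in the yolk sac and 0.54 ± 0.47 in the embryo, and the yolk sac value minus the embryo value was −2.40 ± 0.66 (limma adjusted p = 0.0369). The tissues lay on different slides, so tissue and slide cannot be told apart for the control levels, and the call was lost when any 1 of the 8 arrays was left out (limma adjusted p = 0.0527 to 0.126).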

How the results depend on the processing

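Over 36 results of single globin probes and 528 alternative values, 499 kept their direction and their side of the threshold, 14 kept the direction but no longer passed, 6 passed where they had not, and 9 changed sign. In yolk sac CD45− cells the number of globin probes called for genotype was 1, and 4 with the fit limited to the 4 arrays compared or to the slide's 8 arrays; leaving out single arrays gave 0 to 1. For yolk sac against embryo in CD45− controls it was 1, and 0 without any 1 of the arrays. For the tissue difference of the genotype effect in CD45− cells it was 1, and 0 without any 1 of the arrays or with no filter on dim probes. Sign changes came from leaving out single arrays: in embryo CD45+ cells the ranges were −0.088 to 1.57 for Hba-x, −0.44 to 1.15 for Hba-a1, −0.032 to 1.05 and −0.12 to 1.32 for the Hbb-y probes and −0.82 to 0.13 for Hbb-b1, and in yolk sac CD45+ cells −1.32 to 0.0062 for Hbb-b1. The cause was not tested.

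Same-numbered arrays of different groups correlated at −0.0534 to 0.377 in their deviations from the group means, with 0.377, 0.346, 0.21 and 0.0451 between the gates of one tissue and genotype. The labels tie no numbers together, and the numbers were not taken as pairs. With the replicate block over all groups no count of globin calls moved, and Hbb-b1 in yolk sac CD45− cells stayed at −1.86 (limma adjusted p = 0.0114). A replicate block within tissue and genotype, chosen after seeing the data, called 4 globin probes lower in CD45+ than in CD45− yolk sac controls, 1 higher in embryo controls (Hbb-b1) and 1 for the difference of the genotype effect between the yolk sac gates (Hbb-b1), against 0 in each without it.

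Counts over all probes moved by over 1.5 times with only the 4 arrays compared, for genotype to 128 against 390 (embryo CD45−), 0 against 897 (embryo CD45+) and 5300 against 10425 (yolk sac CD45+), for gate to 7021 against 12127 (embryo controls), and for tissue to 2360 against 3572 (CD45− controls), 2021 against 3657 (CD45+ Tie-2-Etv2) and 0 against 518 (CD45+ controls). With the slide's 8 arrays, embryo CD45+ genotype calls were 448 and the embryo gate difference of the genotype effect 155 against 328. Without the dim-probe filter, CD45+ tissue calls were 2179 (Tie-2-Etv2) and 255 (controls), and tissue differences of the genotype effect 2738 against 4843 (CD45−) and 341 against 913 (CD45+). Normexp gave 160 for CD45+ controls between tissues. Leaving out 1 array also moved these counts by over 1.5 times. Genotype calls were 353 without embryo CD45+ Tie-2-Etv2 replicate 2, 8575 against 13629 without yolk sac CD45− Tie-2-Etv2 replicate 1 and 6630 without yolk sac CD45+ Tie-2-Etv2 replicate 1. Gate calls in Tie-2-Etv2 yolk sacs were 1931 against 3289 without the last of these, and the embryo gate difference of the genotype effect 203 without embryo CD45− Tie-2-Etv2 replicate 2. Tissue calls were as low as 4341 against 9647 (CD45− Tie-2-Etv2, without yolk sac replicate 1), 1109 (CD45− controls, without yolk sac replicate 2) and 748 (CD45+ Tie-2-Etv2, without embryo replicate 1), and 1191 in CD45+ controls without yolk sac replicate 2. Tissue differences of the genotype effect were as low as 1738 in CD45− cells without yolk sac Tie-2-Etv2 replicate 1, and in CD45+ cells between 115 without embryo Tie-2-Etv2 replicate 1 and 2021 without yolk sac control replicate 2. The shares of all probes given beside the globin counts move with these counts. They belong to the main fit, and no such share is given beside the globin counts of other fits.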
